A study of Mus musculus with 14 samples.

Results

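Pdgfra nuclei were taken from 2 libraries of single nuclei of the mouse colonic muscularis, the muscle coat of the gut wall. A nucleus was a member when it had at least 1 unique molecular identifier (UMI, 1 counted RNA molecule) of Pdgfra, a sum of at least 2 UMIs over Pdgfra, Lama1, Adamtsl2, Srpx2 and Cilp, and none of Kit. This rule selected 193 of 4533 nuclei that had at least 300 genes and at most 5% mitochondrial UMIs. The WT library gave 93 of 2837 nuclei (3.28%, exact Clopper-Pearson 95% interval 2.65 to 4.0) and the KO library 100 of 1696 (5.90%, 4.82 to 7.13). Because the rule used these 6 genes, and every other gene was read in the same nuclei, levels in the selected nuclei against other nuclei are given as a description without a test.

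All mice were C57BL/6. One genotype is labelled Carmn iKO (called KO here) and the other WT mTmG (called WT), and the Carmn gene makes a long RNA without a protein product that is known from smooth muscle. The sources used here do not give how or in which cells Carmn was deleted, nor age or treatment. Bulk RNA-seq covered colon and jejunum with 3 libraries per genotype and tissue, and the nuclei gave 1 library per genotype, so the nuclei allow no test between genotypes. Intervals on nuclei cover counting error only.

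PDGFRA is a receptor tyrosine kinase for platelet-derived growth factors, and in the gut muscle coat it marks flat interstitial cells that lie beside nerve varicosities and smooth muscle. These cells are known to carry purinergic receptors and small-conductance calcium-activated potassium (SK) channels, through which inhibitory nerves hyperpolarise the muscle. They are distinct from the KIT-positive interstitial cells of Cajal, and PDGFRA also marks fibroblasts that make collagen and other matrix.

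The targeted gene was read first. Levels are in counts per 1000000 counts of the nuclei or library (CPM), which for genes in nuclei are UMIs. Carmn summed to 500 CPM in the selected WT nuclei and 129 in the selected KO nuclei, and 661 and 228 in other nuclei. The summed levels were thus lower in the library labelled KO. Of the 114 Carmn UMIs of the selected WT nuclei, 49 came from 1 nucleus. The share of selected nuclei with a Carmn UMI was not lower in KO, at 31.2% in WT and 35.0% in KO. In other nuclei the share was 36.3% and 24.4%. With nuclei thinned to equal depth, 6 of 38 selected WT and 4 of 45 selected KO nuclei had a Carmn UMI. In bulk Carmn was higher in the libraries labelled KO, in jejunum without overlap. Carmn had 461, 304 and 718 CPM in KO colon against 252, 171 and 351 in WT, and in KO jejunum 996, 817 and 909 against 240, 206 and 326 (edgeR adjusted p = 0.234 in colon, where the groups overlapped, and 0.0646 in jejunum). Which part of the gene was deleted is not stated, so bulk groups are called libraries labelled KO, written KO colon and KO jejunum with the library's tag (m1, t1 and so on). Bulk totals ranged from 24254905 to 44315104 counts. The 2 libraries of nuclei shared 11 cell barcodes, of which 1 belonged to a selected WT nucleus and 0 to a selected KO nucleus.

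Depth differed between the selected sets. The median was 1382 UMIs in WT (359 to 42128) and 2784 in KO (411 to 48737), against 1582 and 1796 in the other nuclei. The deepest selected nucleus held 18.5% of the 227837 UMIs of the WT set and 9.56% of the 509714 UMIs of the KO set. Over 10000 UMIs were found in 3 WT and 12 KO nuclei, and 14 WT and 31 KO nuclei carried 2 or more UMIs of markers of another cell type. Just inside the threshold, 18 WT and 9 KO nuclei had a marker sum of exactly 2. Just outside it, 48 WT and 17 KO nuclei had a single marker UMI, of Pdgfra. Another 17 WT nuclei (median 59705 UMIs) and 15 KO nuclei (median 10962 UMIs) met the rule except for Kit.

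Promoters are shown for the rule genes Pdgfra, Adamtsl2, Srpx2 and Cilp, and for Lama2, a leading gene with a listed open region at its start in both libraries. They are RefSeq sequences of GRCm38.p6, from 250 bases before to 50 after the gene's start, 5′ to 3′ on the gene's strand. Capitals mark matches to AP-1 (TGANTCA), forkhead (TGTTTAC), TEAD (GGAATG) or CArG box motifs on either strand. The table held 22 of the 31 rule and leading genes.
Pdgfra (chr5:75152001-75152300, plus strand): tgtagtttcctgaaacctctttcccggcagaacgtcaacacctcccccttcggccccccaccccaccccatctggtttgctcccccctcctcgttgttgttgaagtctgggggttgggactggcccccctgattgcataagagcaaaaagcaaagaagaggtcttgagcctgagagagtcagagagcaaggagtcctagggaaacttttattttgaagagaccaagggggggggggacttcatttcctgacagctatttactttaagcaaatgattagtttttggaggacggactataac
Adamtsl2 (chr2:27079129-27079428, plus strand): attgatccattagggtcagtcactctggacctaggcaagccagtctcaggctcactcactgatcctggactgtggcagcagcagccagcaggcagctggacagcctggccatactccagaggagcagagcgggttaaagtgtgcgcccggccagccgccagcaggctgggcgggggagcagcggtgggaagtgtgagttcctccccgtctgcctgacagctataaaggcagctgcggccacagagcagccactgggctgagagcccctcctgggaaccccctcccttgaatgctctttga
Srpx2 (chrX:133908175-133908474, plus strand): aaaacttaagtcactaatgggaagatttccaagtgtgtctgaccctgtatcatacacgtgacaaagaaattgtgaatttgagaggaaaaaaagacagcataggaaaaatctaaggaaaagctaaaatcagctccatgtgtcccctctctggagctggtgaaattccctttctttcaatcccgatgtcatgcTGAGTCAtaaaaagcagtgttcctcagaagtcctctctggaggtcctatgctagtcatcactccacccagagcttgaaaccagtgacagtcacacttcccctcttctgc
Cilp (chr9:65264930-65265229, plus strand): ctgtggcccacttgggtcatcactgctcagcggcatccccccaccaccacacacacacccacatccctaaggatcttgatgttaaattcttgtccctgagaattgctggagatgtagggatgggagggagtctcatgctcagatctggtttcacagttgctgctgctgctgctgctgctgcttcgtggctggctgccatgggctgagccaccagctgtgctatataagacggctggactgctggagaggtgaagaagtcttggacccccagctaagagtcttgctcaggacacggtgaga
Lama2 (chr10:27616893-27617192, minus strand): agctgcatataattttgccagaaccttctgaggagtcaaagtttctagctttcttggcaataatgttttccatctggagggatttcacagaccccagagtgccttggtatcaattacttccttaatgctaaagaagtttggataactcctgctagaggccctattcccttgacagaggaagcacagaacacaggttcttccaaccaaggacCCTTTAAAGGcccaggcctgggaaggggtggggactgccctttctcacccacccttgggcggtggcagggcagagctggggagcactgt

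Srpx2 held 1 AP-1 match, a motif found in 7.81% of 32851 mouse promoters of 300 bases, and Lama2 held 1 CArG box, found in 1.63%. No forkhead or TEAD match (3.65% and 14.7% of promoters) lay in the 5 windows. The E-box (CANNTG), left in lower case, matched 2 times in Pdgfra, 2 in Adamtsl2, 3 in Srpx2, 3 in Cilp and 1 in Lama2, and 72.3% of promoters hold it. A match is a description only.

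The rule genes themselves separated the libraries. Pdgfra had 436 UMIs in the selected WT nuclei (1914 CPM, a median of 3 and at most 24 per nucleus) and 397 in KO (779 CPM, a median of 2 and at most 23). Lama1, a laminin chain of basement membranes, had 142 UMIs in 55 WT nuclei (623 CPM) and 220 in 51 KO nuclei (432 CPM). Cilp, Adamtsl2 and Srpx2, called the 3 secreted genes here for short although the Lama1 product is also secreted, were scarce in WT. Cilp, a cartilage matrix protein that binds growth factors, had 22 UMIs in 12 WT nuclei and 340 in 65 KO nuclei, or 96.6 and 667 CPM. Adamtsl2, a microfibril-associated glycoprotein, had 4 UMIs in 2 WT nuclei and 104 in 39 KO nuclei, or 17.6 and 204 CPM. Srpx2, a ligand of the urokinase receptor, had 3 UMIs in 3 WT nuclei and 33 in 23 KO nuclei, or 13.2 and 64.7 CPM. These values chose the nuclei, so they carry no test.

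The same genes were also higher in the KO library outside the selection. In all other nuclei the KO to WT ratio was 10.9 for Adamtsl2, 3.82 for Cilp and 3.30 for Srpx2, beside 11.6, 6.91 and 4.92 in the selected nuclei. Smooth muscle nuclei, chosen by Myh11 and without Pdgfra or Kit, were taken as a comparison (median 1936 UMIs in WT and 2720 in KO). Free RNA was not measured, so free RNA in them cannot be told apart from their own. Of these smooth muscle nuclei 0.484% in WT and 3.73% in KO had a UMI of Cilp, against 12.9% and 65.0% of the selected nuclei. For Adamtsl2 the shares were 0.0968% and 1.66%, against 2.15% and 39.0%. A UMI of either gene counted toward selection, so the gap between these shares is in part set by the rule and does not measure how far the genes stand above free RNA.

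Marker combinations split the selected nuclei differently in the 2 libraries. This grouping was chosen after the values were seen. In WT, 50 nuclei had Lama1 and none of the 3 secreted genes, 5 had both, 10 had a secreted gene without Lama1, and 28 had Pdgfra alone. In KO the same groups held 17, 34, 44 and 5 nuclei. Any of the 3 secreted genes was found in 16.1% of WT (95% interval 9.32 to 25.2) and 78.0% of KO nuclei (68.6 to 85.7). After each nucleus was thinned to 1000 UMIs, 38 WT and 45 KO nuclei met the rule, and the shares were 10.5% and 57.8%. Thinning left out 35 WT and 11 KO selected nuclei as too shallow. A nucleus with 1 Pdgfra UMI (14 in WT, 33 in KO) needed Lama1 or a secreted gene to be selected. The shares are thus in part set by the rule, and thinning applied the same rule again.

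**Figure D1:**
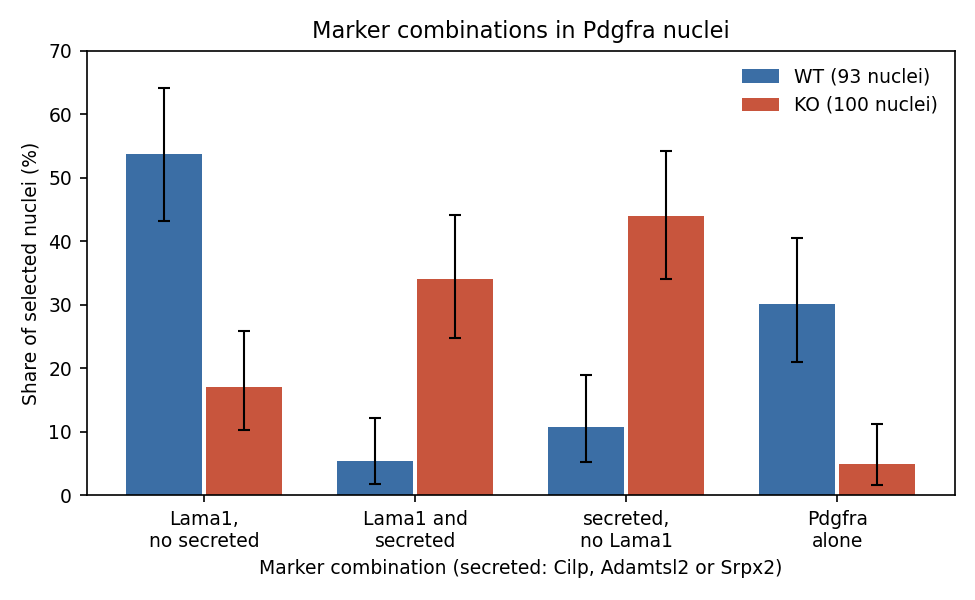
Share of selected nuclei (percent, vertical axis) with each marker combination in the WT library (93 nuclei, blue) and the KO library (100 nuclei, red), with exact 95% binomial intervals as bars. Lama1 without a secreted gene made up 53.8% of WT and 17.0% of KO nuclei, and a secreted gene without Lama1 10.8% and 44%. The secreted genes (Cilp, Adamtsl2 and Srpx2) and Lama1 counted toward selection, so the shares are in part set by the rule.

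Within the KO library Adamtsl2 and Srpx2 were found more often in nuclei with Cilp than in those without it. Most nuclei with Cilp still lacked Adamtsl2, and most lacked Srpx2. Of 65 KO nuclei with Cilp, 30 had Adamtsl2 (46.2%), against 9 of 35 without Cilp (25.7%), and 17 had Srpx2 (26.2%) against 6 of 35 (17.1%). Lama1 ran the other way, in 24 of the 65 nuclei with Cilp (36.9%) and 27 of the 35 without it (77.1%). Nuclei without Cilp needed another marker UMI to be selected, so part of that contrast is set by the rule. Depth also moved with these groups. KO nuclei with a secreted gene and no Lama1 had a median of 3497 UMIs, against 1664 in KO nuclei with Lama1 alone and 1542 in the like WT nuclei. Its part in the shares was tested only by the thinning above.

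**Figure D2:**
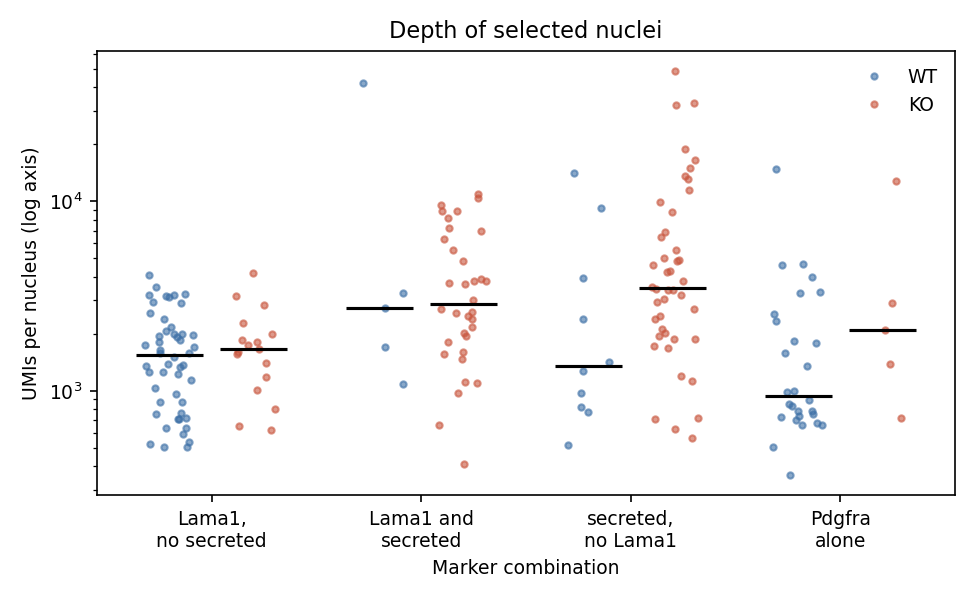
UMIs per selected nucleus (vertical log axis) by marker combination, with each point a nucleus and each line a median. The KO nuclei with a secreted gene and no Lama1 have the highest median, 3497 UMIs, and include the nucleus of 48737 UMIs.

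Leading genes are those with a UMI in at least 10% of the selected nuclei of each library and the highest ratio to other nuclei, taking the smaller of the 2 library ratios. Of 3339 genes found in that share of nuclei, the first 25 were named and the first 50 counted in bulk. Of these 50, 39 were also among the first 50 by the WT library alone.

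Several leading genes encode receptors and channels. Adra1a, the alpha-1A adrenergic receptor, led with 356 CPM in selected WT nuclei against 9.08 in other WT nuclei (39.2 times), and 47.1 against 2.30 in KO (20.5 times). Kcnn3, the SK3 potassium channel, stood at 2124 against 77.1 in WT and 808 against 61.2 in KO. It was found in 86.0% of selected WT and 65.0% of selected KO nuclei, and in 4.65% and 4.77% of smooth muscle nuclei. Cacna1g, a T-type calcium channel, had 123 and 135 CPM in the selected nuclei, 18.9 and 22.5 times other nuclei. Kcnk2, a background potassium channel, had 136 and 163. Gucy1a1 and Gucy1b1, the subunits of the nitric oxide receptor guanylate cyclase, had 1168 and 593 in WT and 502 and 257 in KO, 4.63 to 13.1 times other nuclei.

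Other leading genes encode matrix proteins. Lama2, another laminin chain, stood at 2015 CPM in selected WT nuclei against 86.2 in other WT nuclei, and at 1334 against 92.7 in KO. Svep1, a large extracellular adhesion protein, had 891 and 2297, which is 8.27 and 13.5 times other nuclei. Fbln1, a fibulin of elastic fibres and basement membranes, had 623 and 337, and Adamtsl3 838 and 404. Lum and Dpt, a collagen-binding proteoglycan and a dermal matrix protein, had 79.0 and 65.8 in WT and 118 and 82.4 in KO. Spon2 (29.1 and 18.6 times other nuclei) and Htra3, a secreted protease (9.33 and 13.7 times), were lower in level, with at most 122 CPM.

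Robo2, a receptor of Slit guidance cues, had 4016 CPM in WT, the highest of the 25, and 2082 in KO, where Svep1 stood higher. Epha3, an ephrin receptor, had 707 and 173, and Jam2, a junctional adhesion molecule, 663 and 218. Dnm3os, a long RNA that hosts microRNAs, had 127 and 418, or 18.9 and 19.2 times other nuclei. Aldh1a3, an enzyme of retinoic acid synthesis, had 158 and 151, and Prkar2b, a regulatory subunit of protein kinase A, 285 and 129. C7, a complement component, had 316 and 60.8, but 41 of its 72 WT UMIs came from 1 nucleus. Pla1a, Tmem204, Lgi2, Ms4a4d, Gm30524 and Gask1b completed the list, at 45.1 to 184 CPM.

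**Figure D3:**
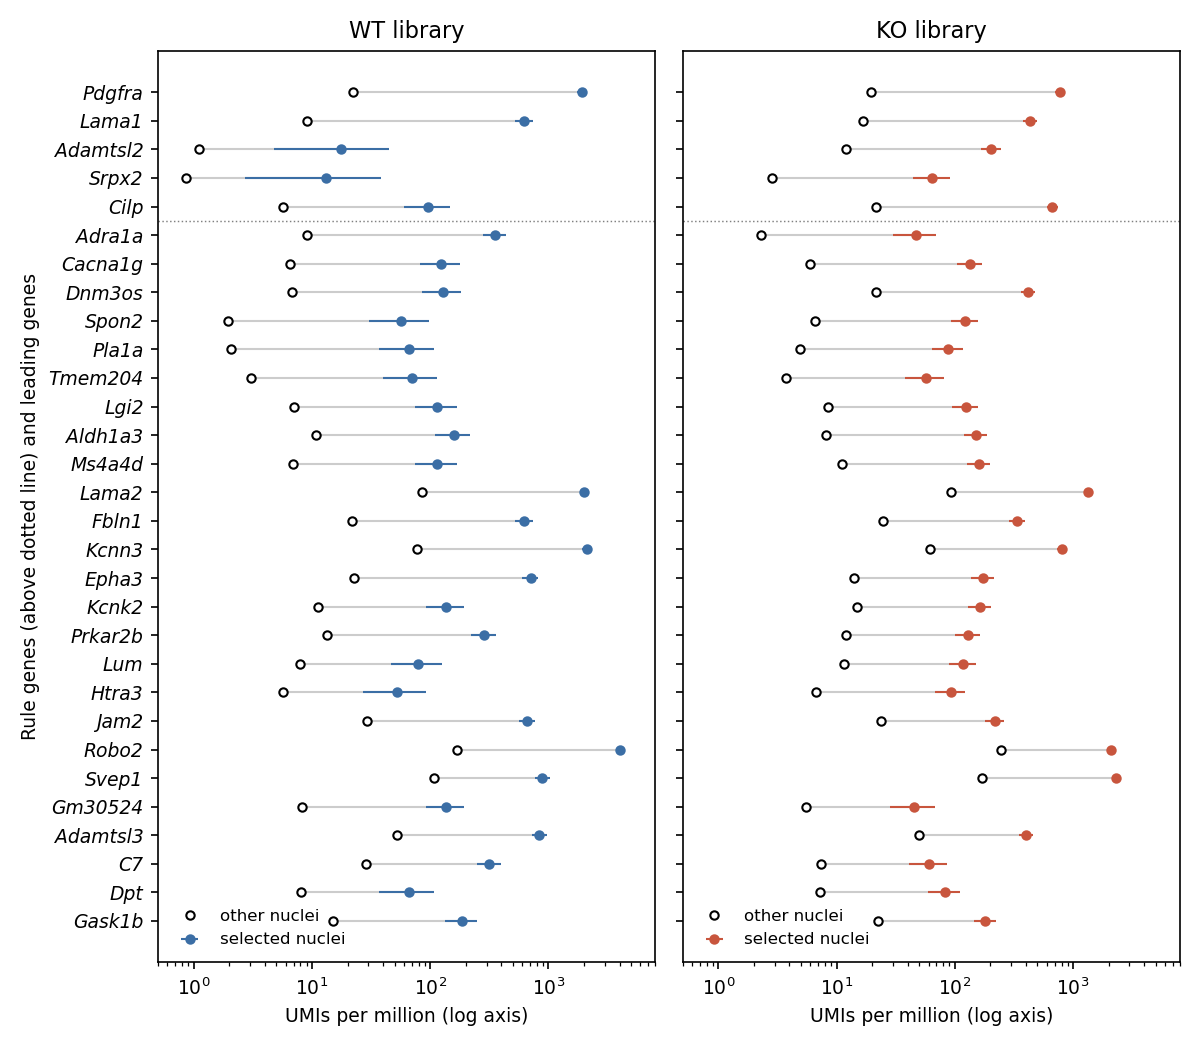
CPM (horizontal log axis) of the 5 positive rule genes and the 25 leading genes in selected nuclei (filled, with exact Poisson 95% intervals) and in all other nuclei (open) of the WT and KO libraries. Every filled point lies to the right of its open point, by 7.97 times (Gask1b in KO) or more for the leading genes.

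Marker lists were used to check the label. All 15 collagen and proteoglycan genes of fibroblasts stood above other nuclei in both libraries, with a summed 5047 CPM in WT (2652 in other nuclei) and 10350 in KO (4545). Purinergic and SK channel genes summed to 2862 in WT (448 in other nuclei) and 1001 in KO (255), most of it Kcnn3. Within that list P2ry1, the purinergic receptor known for these cells, had 35.1 and 17.7 CPM. Subepithelial telocyte genes summed to 443 in WT and 247 in KO, below the 597 and 530 of other nuclei. In that list the transcription factor Foxl1 was at 0 in both libraries, while Bmp5 (83.4 CPM against 9.45) and Nrg1 (141 against 60.6) stood above other nuclei in WT. The 6 genes of interstitial cells of Cajal summed to 487 in WT and 210 in KO, below the 821 and 793 of other nuclei. Of them 1 stood above other nuclei in WT and 0 in KO. Kit was at 0 by the rule, which lowers the sum, and Gpr20 was at 0 in both libraries. Ano1 had 202 and 110 against 1570 and 1965 in Kit nuclei. Kit nuclei were chosen by UMIs of Kit, Ano1 and Etv1 and without Pdgfra. Their Ano1 level is thus in part set by that choice. Matrix genes and the channel and receptor genes Kcnn3 and Adra1a were read above other nuclei in both libraries. Of the 11 purinergic and SK channel genes, 5 stood above other nuclei in WT and 6 in KO. P2ry2, P2ry12, P2ry14 and Kcnn4 were at 0 in WT, and P2ry2 in KO. Kcnn3, Adra1a and, of the 15 matrix genes, Lum, Dpt, Fbln1 and Col6a3 are also leading genes. Leading genes were ranked by their ratio to other nuclei, so their place above other nuclei was set by that choice. Adventitial fibroblast genes summed to 619 and 944, below the 808 and 1072 of other nuclei. Of these 9 genes, 3 stood above other nuclei in WT and 6 in KO. In nuclei with a secreted gene and no Lama1 their sum was higher than in other nuclei, at 1891 in WT and 1252 in KO. In nuclei with Lama1 and no secreted gene it was 312 and 987. Without nuclei over 10000 UMIs the sum over the selected nuclei was 338 and 556.

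Other cell types were not absent. Smooth muscle genes summed to 6044 CPM in WT and 2174 in KO, below the 9013 and 6753 of other nuclei, and 317 of the 629 Myh11 UMIs in WT came from 1 nucleus. Mesothelial markers summed to 382 in WT and 806 in KO, enteric neuron markers to 43.9 and 261, and macrophage markers to 39.5 and 161, each below other nuclei of its library. Epithelial markers summed to 233 and 118, also below (766 and 427). Pericyte markers summed to 452 in WT, above the 217 of other nuclei (4 of 6 genes, mostly Abcc9), and to 200 in KO, below 348. Lymphatic endothelial markers summed to 171 in WT, below 220, and to 273 in KO, above 216 (4 of 5 genes). The adipocyte list stood at 698 and 269, above the 55.7 of other nuclei in each library, all of it Pparg, with Adipoq, Plin1 and Cidec at 0. Without nuclei over 10000 UMIs the mesothelial sums were 147 and 278 and the enteric neuron sums 44.6 and 183. The part of these RNAs in the differences below was not tested beyond the alternatives given.

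Between the libraries, the leading genes were more often lower in KO. Of the 50, 32 had a KO to WT ratio under 1 and 18 above, with a median of 0.796, beside a median of 1.002 over 3183 genes with at least 50 UMIs. Over 2-fold lower were 16 of the 50, where 5.06% of the 3183 genes were, and over 2-fold higher were 4, where 9.49% were. The 2 sets are unlike, because the 50 were chosen by share of nuclei and ratio to other nuclei. The 3183 were chosen by summed UMIs and do not hold all of the 50. Adra1a had a ratio of 0.132 (95% interval 0.0803 to 0.211), Epha3 0.244, Jam2 0.329 and Kcnn3 0.381 (0.333 to 0.435). Dnm3os had 3.28 (2.22 to 5.02) and Svep1 2.58 (2.22 to 3.01). In other nuclei these ratios were 0.253, 0.612, 0.815, 0.794, 3.23 and 1.59. With 1 library per genotype the ratios compare libraries and not genotypes.

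Some of these ratios changed when nuclei of the same marker combination were compared. Among nuclei with Lama1 and no secreted gene (50 WT, 17 KO), Kcnn3 had 3115 CPM in WT (2748 to 3517) and 2929 in KO (2352 to 3605), with overlapping intervals. In the same nuclei Adra1a had 491 (352 to 666) and 165 (53.4 to 384), on 41 and 5 UMIs. Svep1 had 1318 (1083 to 1588) and 2830 (2264 to 3496), and Dnm3os 95.8 (41.4 to 189) and 560 (326 to 896). In nuclei with a secreted gene and no Lama1, Kcnn3 had 331 (271 to 400) in KO and 1100 (782 to 1504) in the 10 WT nuclei. This KO group holds the deepest selected KO nuclei, of 48737, 32850 and 32130 UMIs. Each of them carried 2 or more UMIs of markers of another cell type, and deep nuclei weigh most in summed levels. The 5 KO nuclei with Pdgfra alone held 2 UMIs of Kcnn3. Robo2 had 712 in the KO nuclei with a secreted gene alone and 5235 in KO nuclei with both kinds of marker. After thinning to 1000 UMIs, Kcnn3 was found in 81.6% of WT and 55.6% of KO nuclei, Adra1a in 39.5% and 6.67%, and Svep1 in 60.5% and 80.0%. In other nuclei thinned in the same way Kcnn3 was found in 4.49% and 3.65%. Adra1a was found mostly beside Kcnn3, in 43 of 80 WT nuclei with Kcnn3 and 1 of 13 without it.

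Of genes with at least 50 UMIs, the 8 with the lowest KO to WT ratios were Kcnn2 (0.0571), Kcnip4 (0.0608), Car8 (0.0650), Pdzrn4 (0.0868), Dpp10 (0.0875), Inpp4b (0.0916), Epha7 (0.0993) and Zfp804b (0.101). Kcnn2 encodes the SK2 channel, and Kcnip4 and Dpp10 encode partners of voltage-gated potassium channels. Inpp4b, a phosphoinositide phosphatase, had 244 UMIs in 56 WT nuclei and 50 in 20 KO nuclei. Its ratio in other nuclei was 0.867, and among nuclei with Lama1 and no secreted gene its level was 1749 (1477 to 2057) in WT and 230 (92.6 to 475) in KO. Kcnip4 rested on few nuclei, with 1163 of its 2154 WT UMIs in 1 nucleus, and its ratio was 0.179 without nuclei over 10000 UMIs. Pdzrn4 and Dpp10 were found in 12 and 8 WT nuclei.

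The 8 highest ratios were those of Slc39a14 (26.4), Bmper (19.3), Trabd2b (19.0), Lrrtm4 (16.7), Gfpt2 (16.4), Col12a1 (15.6), Fmn1 (14.9) and Rai14 (14.4). Slc39a14 is a zinc and iron transporter, Bmper a secreted regulator of BMP signals, Col12a1 a fibril-associated collagen and Fmn1 an actin nucleator. Slc39a14, Trabd2b and Gfpt2 rested on 1, 2 and 3 WT UMIs, with intervals of 4.55 to 1059, 5.10 to 159 and 5.46 to 80.7. Fmn1 had 17 UMIs in 9 WT nuclei and 567 in 58 KO nuclei. Col12a1 had 12 in 6 and 419 in 41. Single nuclei held 108 of the 302 KO UMIs of Bmper and 198 of the 337 of Lrrtm4. Among nuclei without a secreted gene, an alternative chosen after seeing the data, the ratios were 3.51 for Bmper (4 WT and 5 KO UMIs), 1.79 for Col12a1 (11 and 7), 6.56 for Fmn1 (6 and 14) and 7.49 for Rai14 (3 and 8). In other nuclei the 8 ratios lay between 0.867 and 3.40.

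**Figure D4:**
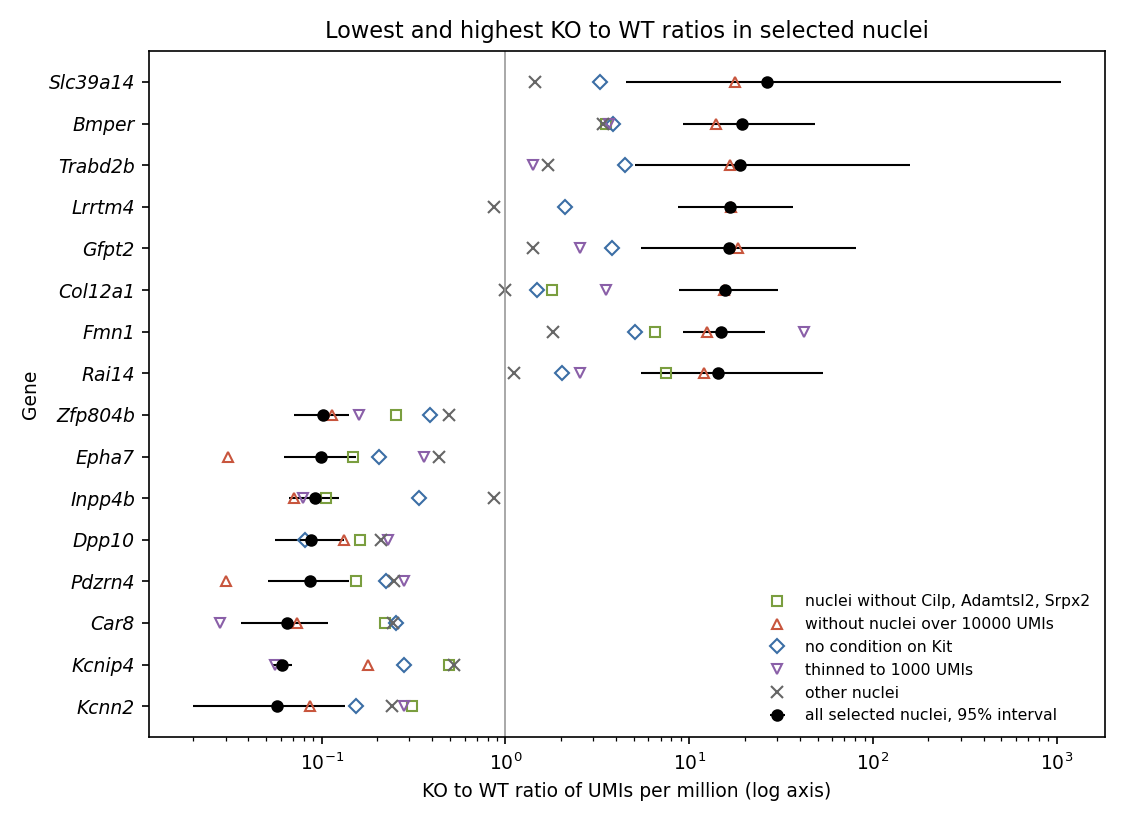
KO to WT ratio of CPM (horizontal log axis) of the 8 lowest and 8 highest genes in selected nuclei with 95% counting intervals (black), under 4 alternatives (open marks) and in other nuclei (crosses). No mark of an alternative crosses 1, and Inpp4b has 0.0916 in selected and 0.867 in other nuclei.

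The lists were read in the same way. Of the 15 fibroblast collagen and proteoglycan genes 13 were higher in KO (median ratio 2.45), with Col3a1 at 1045 and 2556 CPM, Col1a2 at 544 and 1754, and Col5a2 at 865 and 2160. Of 15 microfibril genes with at least 10 UMIs, such as Fbn1 (246 and 730) and Eln (206 and 934), 12 were higher. These 12 include the rule genes Cilp and Adamtsl2, whose UMIs chose the nuclei. Of purinergic and SK channel genes with at least 10 UMIs, 5 of 6 were lower (median 0.406), and of contractile genes 9 of 11 (0.418). Of 10 glucocorticoid response genes 8 were higher (1.85), among them Fkbp5 at 197 and 451. In other nuclei the ratios of Col3a1, Eln and Fkbp5 were 1.45, 6.33 and 2.93, so Eln and Fkbp5 had a higher ratio there.

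Open chromatin was sparse in the selected nuclei, with a median of 569 region counts per nucleus in WT and 642.5 in KO. Regions were listed separately in each library, so ratios were taken within a library. A region lay within 1000 bases of the start of 12 of 31 rule and leading genes in WT and of 7 in KO. The promoter of Adamtsl2 printed above lies inside a WT region (chr2:27078504-27079770) with 16 counts in 7 selected nuclei, 159 CPM against 31.7 in other nuclei, while the KO library listed none at that start. That of Lama2 lies inside a region of each library, with 4 counts in WT (5.64 times other nuclei) and 5 in KO (2.56 times). Dnm3os had a WT region with 10 counts in 5 nuclei, 4.23 times other nuclei. No region was listed within 1000 bases of the start of Pdgfra, Cilp or Srpx2. Summed over the gene and 10000 bases either side, a sum chosen after seeing the data, Pdgfra had 6 counts in WT, 4.91 times other nuclei (1.67 to 11.9). These 6 counts lay in 3 nuclei. The interval takes each count as independent. Only 11.6% of WT region values were odd, so counts may come in pairs and the interval may be too narrow. Over the same window Pdgfra had 2 counts in 1 KO nucleus, 19.8 CPM against 17.2 in other nuclei. Kcnn3 had 2 counts in WT and 0 in KO. Regions near the starts of genes outside the list reached ratios of like size, such as one 844 bases from Ski with 2.07 in WT and 1.97 in KO, so these values describe single regions only.

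Bulk libraries were used to ask whether the leading genes moved in whole muscularis with replicates. There a lower value can come from fewer cells or from less RNA per cell, which cannot be told apart. Nothing says that the 3 libraries of a group came from separate mice, so p values measure the spread between these libraries. Of 20886 genes tested, 0.388% were called in colon and 0.215% in jejunum (edgeR quasi-likelihood test, Benjamini-Hochberg adjusted p under 0.05). Of the 50 leading genes 48 were tested, and 0 were called in colon and 0 in jejunum. At an unadjusted p under 0.05 there were 8 and 13, and DESeq2 called 3 and 5, against 4.6% and 3.85% of all genes. Median log2 fold changes were 0.13 in colon and 0.11 in jejunum, beside 0.004 and 0.02 over all genes. No gene was called in the difference between tissues by edgeR (5 of the 48 at an unadjusted p under 0.05, 0 by DESeq2, which called 0.182% of all genes).

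Libraries labelled KO lay wholly above WT for 4 of the 48 genes in colon and wholly below for 6, where 8.79% and 10.4% of all genes did so. In jejunum the counts were 11 above and 3 below, where 11% and 11.2% of all genes did so. The summed level of the 50 genes was 2527 to 3348 CPM in KO and 2648 to 3957 in WT colon, which overlap. In jejunum it was 3414 to 3542 in KO and 2588 to 3103 in WT, with no overlap. Several cell type lists also separated. In colon the summed adventitial fibroblast genes were lower, with 445 to 521 CPM in KO and 635 to 932 in WT. So were telocyte (95.7 to 129 against 141 to 165) and smooth muscle genes (23760 to 32740 against 37970 to 54640). In jejunum macrophage markers summed to 426 to 968 CPM in KO and 127 to 288 in WT, higher for all 6 genes without overlap. The summed trophocyte (1925 to 4891 against 1163 to 1280) and smooth muscle genes (34210 to 62840 against 31560 to 33930) were higher too. The summed pericyte (2133 to 3453 against 4070 to 5454), telocyte (138 to 266 against 346 to 461), adventitial fibroblast (707 to 911 against 955 to 1236) and enteric neuron genes (342 to 431 against 439 to 537) were lower. No gene of these lists was called by edgeR in jejunum (0 to 4 a list at an unadjusted p under 0.05), while DESeq2 called 4 macrophage genes and 1 pericyte gene. Single genes did not always follow the sums. In colon 1 of 9 adventitial fibroblast, 3 of 8 telocyte and 0 of 8 smooth muscle genes had a log2 fold change above 0. In jejunum 4 of 6 pericyte genes (list median 0.22), 4 of 8 telocyte, 4 of 9 adventitial fibroblast and 0 of 7 enteric neuron genes did. Of the lists with a higher sum there, 2 of 5 trophocyte and 2 of 8 smooth muscle genes were lower. The part of these cell types in the sum of the leading genes was not tested.

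The rule genes were read in the same fit. Adamtsl2 (chromosome 2, 27079379 to 27108981 in GRCm38) stood at 11.4, 40.5 and 23.4 CPM in KO colon against 3.18, 1.48 and 1.52 in WT colon. All 3 KO values lay above all WT values. The fitted difference was 3.60 ± 0.90 on the log2 scale (SE), with an adjusted p of 0.124 by edgeR and 3.07e-04 by DESeq2. In jejunum it had 41.7, 5.08 and 4.78 CPM against 2.06, 2.30 and 0.853, again without overlap. There the difference was 3.30 ± 0.89, with an adjusted p of 0.161 by edgeR and 0.00152 by DESeq2, and without KO jejunum m1 it was 1.48. So Adamtsl2 did not pass the edgeR threshold in either tissue.

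Cilp stood at 111, 225 and 127 CPM in KO colon against 99.7, 89.6 and 107 in WT colon. The groups did not overlap but lay close, at a log2 difference of 0.64 ± 0.65 (adjusted p by edgeR 0.713). In jejunum Cilp had 351, 58.2 and 57.3 against 21.9, 30.7 and 11.2 CPM. That is 2.87 ± 0.69 on the log2 scale (adjusted p by edgeR 0.128, by DESeq2 5.55e-04), and 1.42 without KO jejunum m1. Srpx2 had 3.91, 8.22 and 3.93 CPM in KO colon against 3.37, 3.27 and 3.36 in WT, and 7.72, 3.85 and 4.53 in KO jejunum against 2.84, 2.65 and 1.44. Its log2 fold changes were 0.68 and 1.21 (edgeR adjusted p = 0.474 and 0.231). KO colon t4 and KO jejunum m1 were the highest libraries of their groups for all 3 genes.

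Pdgfra itself overlapped between the genotypes. In colon it had 148, 232 and 142 CPM in KO and 112, 119 and 146 in WT, and in jejunum 112, 124 and 169 in KO and 148, 167 and 96.8 in WT. The log2 fold changes were 0.46 (edgeR adjusted p = 0.454) and -0.03 (0.982), so neither passed the threshold. Lama1 had 28.5, 51.7 and 23.0 CPM in KO colon and 17.0, 19.2 and 22.8 in WT, just without overlap (0.81, edgeR adjusted p = 0.490). In jejunum Lama1 overlapped (0.57, edgeR adjusted p = 0.658) and turned to -0.38 without KO jejunum m1.

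**Figure D5:**
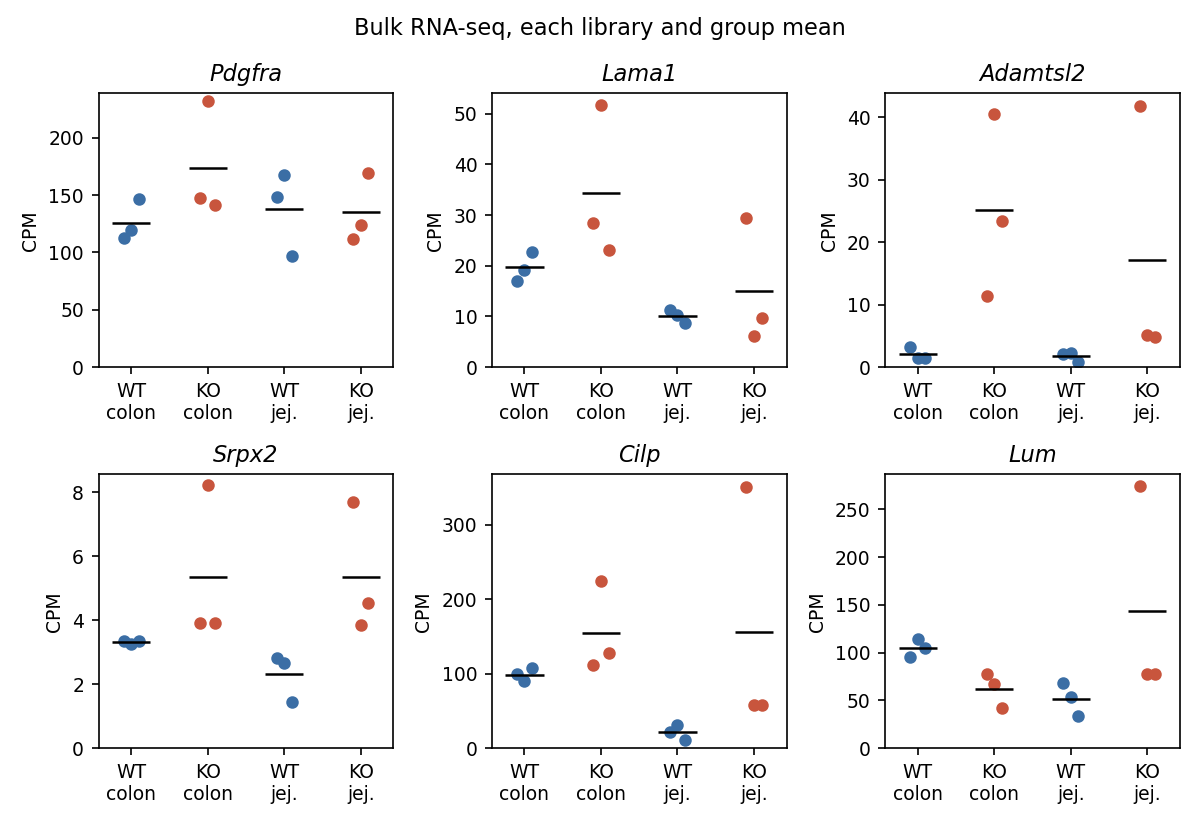
CPM (vertical axes from 0) of 5 rule genes and Lum in each bulk library, as points, with group means as lines, for WT (blue) and the libraries labelled KO (red) in colon and jejunum (jej.). All KO points of Adamtsl2, Cilp and Srpx2 lie above the WT points of the same tissue, and those of Lum lie below in colon and above in jejunum.

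Of the leading genes, those with the smallest p in colon were Gucy1b1, Dpt, Col24a1, C7 and Bicc1, and in jejunum Gask1b, Pla1a, Svep1, Gucy1b1 and Tmem200a. Gucy1b1 was the only one of them wholly lower in the libraries labelled KO in both tissues, by -0.69 ± 0.19 in colon and -0.66 ± 0.19 in jejunum on the log2 scale (adjusted p by edgeR 0.149 and 0.179, by DESeq2 0.0336 and 0.0479). Its ratio in the selected nuclei was 0.434. C7 had 7.62, 1.98 and 9.72 CPM in KO colon against 21.7, 24.8 and 45.6 in WT, or -2.25 ± 0.70 on the log2 scale (adjusted p by edgeR 0.189). Svep1 had 153, 231 and 254 CPM in KO jejunum against 101, 130 and 64.6 in WT, or 1.12 ± 0.30 (adjusted p by edgeR 0.151), and overlapped in colon (0.14, adjusted p = 0.890). Dpt, C7, Bicc1, Col24a1, Gask1b, Svep1, Tmem200a and Pdgfra overlap other annotated genes, so their bulk counts are uncertain. Kcnn3 overlapped in both tissues (-0.10 and 0.80, edgeR adjusted p = 0.953 and 0.485).

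Lists gave few calls. Of all genes 0.115% were called higher and 0.273% lower in colon, and 0.124% and 0.091% in jejunum. Of 15 fibroblast collagen and proteoglycan genes 0 were called in colon or jejunum (2 and 4 at an unadjusted p under 0.05, DESeq2 0 and 2), with medians of 0.22 and 0.66 on the log2 scale. Of 11 purinergic and SK channel genes, 1 rose in jejunum, the UDP-sugar receptor P2ry14, from 23.2, 21.8 and 23.6 to 79.1, 67.5 and 60.1 CPM (log2 fold change 1.59, SE 0.21, edgeR adjusted p = 0.0145). P2ry14 had 0 UMIs in the selected WT nuclei and 3 in the selected KO nuclei. Of 9 adventitial fibroblast genes, Dpp4 fell in colon (-1.81, edgeR adjusted p = 0.0326). Of 19 Wnt and BMP genes, Bmp4 fell in jejunum (-1.85, 0.0419), and of 15 basement membrane genes, the linker protein Nid2 fell in jejunum (-1.83, 0.0143). Of 13 contractile genes 2 fell in colon, Casq2 and Pln of calcium storage, with a list median of -0.78. Of 10 glucocorticoid response genes 5 rose in colon (Fkbp5, Mt1, Cebpd, Apod and Errfi1) and 4 in jejunum (all but Cebpd), with medians of 2.26 and 1.77, a list written with these results known.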

How the data were processed

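For the 12 bulk libraries the deposited file holds unnormalised counts of reads by gene, and the authors deposited, for each library of nuclei, a matrix of counts per barcode over genes and open regions, written by cellranger-arc 2.0.0 per the file headers. The submitters' processing notes name STAR 2.0.4b, Subread, featureCounts 1.4.5, edgeR and Cell Ranger and the builds GRCm38 and mm10. All gene values of nuclei were even, while 11.6% (WT) and 11.5% (KO) of region values were odd, and each gene value was halved (divisor 2) to give UMIs, an inference from the values. No doublet caller was run. UMIs were summed over nuclei per library. Intervals are exact (95%, Clopper-Pearson or Poisson), and 3 UMIs served as the floor where a sum was 0.

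Bulk counts were tested with edgeR 4.0.16 (R 4.3.3), TMM scaling, filterByExpr and 1 model over 12 libraries. Repeated identifiers (276) were dropped. No source used here gives the strand setting of the counting. Contrasts were KO minus WT in each tissue and their difference. DESeq2 1.42.0, limma voom 3.58.1, other scalings and filters, and leaving out each library were alternatives, and for nuclei other thresholds, thinning and 2 alternatives chosen after seeing the data. On simulated counts for KO minus WT in colon (20468 genes), 10.0% of 2-fold and 81.0% of 4-fold changes were recovered, and the selection rule was tested on simulated nuclei.

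Named genes were the rule genes and Carmn, 25 leading genes, the 8 lowest and 8 highest KO to WT ratios, the 5 leading genes with the smallest bulk p in each tissue, and up to 4 members with the most UMIs per list. Other genes, such as P2ry14, Dpp4, Bmp4, Nid2, Gucy1a1, Ano1 and those listed at 0 or called in bulk lists, were named after their values were seen. Members and lists were chosen with earlier results of these data known.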

Additional observations from a re-analysis of the deposited data

Results flagged for a closer look

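Lum differed between the tissues. In colon its libraries labelled KO had 77.3, 66.8 and 41.9 CPM, all below the 95, 114 and 105 CPM of WT, and in jejunum they had 275, 77.7 and 78.0 CPM, all above the 68.0, 53.3 and 33.9 CPM of WT. The colon minus jejunum difference was -2.23 on the log2 scale (unadjusted p = 0.00623, edgeR adjusted p = 0.941), so it did not pass the threshold. KO jejunum m1 was more than 3 times the other jejunum libraries labelled KO. In the selected colon nuclei the KO to WT ratio of Lum was 1.49, with an interval of 0.868 to 2.68.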

How the results depend on the processing

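Depth limits most values of single genes in nuclei, and 1 library per genotype leaves differences between mice unmeasured. The share of selected nuclei was 2.64% in WT with a marker sum of at least 3 and 1.90% after thinning, and in KO 4.07% without nuclei with 2 or more UMIs of another cell type and 3.68% after thinning. The minimum of 500 genes, the limit of 1% mitochondrial UMIs and dropping the condition on Kit left both shares within their intervals. Without nuclei holding Cilp, Adamtsl2 or Srpx2, 78 WT and 22 KO nuclei would remain. Of 137 alternative KO to WT ratios of the 16 lowest and highest genes, 0 changed direction and 49 left the counting interval. Dropping the condition on Kit moved 15 of 16, thinning to 1000 UMIs 12 of 14, leaving out nuclei with a secreted gene 9 of 12, and the other settings 0 to 4 each. Values against 0 UMIs rest on the floor of 3.

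In bulk, 0 leading genes were called under edgeR with other scaling or filters, voom, voom with the replicate block, or without any one library (0 to 0). DESeq2 called 3 in colon and 5 in jejunum. Tags pair only in name (correlations of deviations -0.163 to 0.100), and the replicate block changed no call of the leading genes. Some log2 differences changed sign. Leaving out 1 library at a time, Pdgfra in jejunum ranged from -0.23 to 0.14 (0.07 without KO m1, 0.02 without KO t1 or WT t1, 0.14 without WT t6). Lama1 in jejunum ranged from -0.38 (without KO m1) to 0.93, Kit in colon from -0.43 to 0.14 (without KO t4) and Kit in jejunum from -0.18 (without KO t4) to 0.24. With the replicate block Kit in jejunum was -0.0032. The cause was not tested. Carmn in jejunum passed the threshold with no filter (adjusted p = 0.0370), DESeq2 (7.89e-05), voom (0.0484), or without KO colon t4 (0.0263) or t6 (0.0453). With the replicate block its adjusted p was 0.0524.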
